A study of Mus musculus with 15 samples.

Results

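The adhesion molecules examined here were the intercellular adhesion molecule Icam1, the cell surface proteoglycan Sdc4, the hyaluronan receptor Cd44 and the integrin subunits Itga4, Itga5, Itgb1 and Itgb2. These 7 genes were chosen by name from the 21028 mouse genes with an annotated 3′UTR, and a crosslink site was counted for a gene when it lay on the gene's own strand. The sites came from individual-nucleotide resolution crosslinking and immunoprecipitation (iCLIP) of tristetraprolin (TTP, encoded by Zfp36) in mouse macrophages. The method covalently links a protein to the RNA it touches with UV-C light, purifies the complex and reads the crosslinked nucleotide from where the cDNA ends.

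All cells were TTP-deficient C57BL/6 bone marrow-derived macrophages, grown in M-CSF, immortalised with hcmyc and hRasG12V and selected for CD11b and F4/80. They carried a retroviral all-in-one tet-inducible vector for GFP-TTP or for GFP-TTP-AA, a mutant in which alanine replaces the serines that the kinase MK2 phosphorylates. The vector supplied the coding sequence from a doxycycline promoter, so the expression of the fusion proteins did not depend on the natural Zfp36 gene. Every group had received doxycycline for 6 h at 1 µg/ml, and the complexes were pulled down with a GFP-Nanotrap. The 6 groups were resting cells (0 h) and cells given lipopolysaccharide (LPS) at 1 µg/ml for 1 h or 4 h. For GFP-TTP there were 2, 4 and 2 samples at these times, and for GFP-TTP-AA 2, 3 and 2. The libraries of each group had been pooled into 1 list of sites, so no spread between replicates can be given, and each test below compares 2 pooled lists and not the conditions. A list for cells with GFP alone was not analysed here.

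TTP is a zinc finger protein that binds AU-rich elements in the 3′UTRs of short-lived mRNAs, whose core is the pentamer AUUUA, and recruits the machinery that deadenylates and degrades the mRNA. In macrophages stimulated with LPS, the kinase p38 activates MK2, and phosphorylation by MK2 restrains the destabilising activity of TTP. Adhesion receptors hold macrophages to other cells and to the matrix: integrins are pairs of an alpha and a beta subunit, Icam1 is a ligand of the beta-2 integrins, and the syndecan Sdc4 and Cd44 bind matrix components and cooperate with integrins.

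The nucleotides that carried most crosslinks are shown first, since the sites of the 7 mRNAs differed in whether they fell on an AUUUA. Each line gives 25 nucleotides of the GENCODE M21 transcript from 5′ to 3′, with the crosslinked nucleotide in the middle at position 13 and AUUUA in capitals. For each gene the site with most cDNAs in the TTP-AA list at 1 h is given, and the top TTP site at 1 h where it lay more than 12 nt away. Of equally strong sites, of which there were 2 to 4 for the TTP-AA sites of Itga4 and Itgb2 and the TTP sites of Cd44, Itgb1 and Itgb2, the one nearer the stop codon is given. Icam1 at nt 379 and Sdc4 at nt 1786 were added after their values were seen. The Icam1 site at nt 379 was tied at 15 TTP-AA cDNAs with nt 388, the first base of another AUUUA.
Icam1 nt 460, top TTP-AA site: gaauguauaaguuauggccuggacc
Icam1 nt 379, strongest TTP-AA site near AUUUA: cucuucuugauguAUUUAuuaauuu
Sdc4 nt 971, top TTP-AA site: cguguccuuguuuuugaccuuggcc
Sdc4 nt 880, top TTP site: uuguuuuuuacuAUUUAuagcuuca
Sdc4 nt 1786, near the 3′ end: uacugaucuuuuuuuuuuuuuuuuu
Cd44 nt 2669, top TTP-AA site: ugauugacuaauaauaaugaggaaa
Cd44 nt 2612, top TTP site: uguuccuuugauuuuucagagaccc
Itga4 nt 1525, top TTP-AA site: cauuuuuguaguAUUUAuuucauau
Itga5 nt 929, top TTP-AA site: ccaccccaacuuAUUUAaacucugu
Itgb1 nt 1077, top TTP-AA site: uuaacugaaguuAUUUAuuaaaaua
Itgb1 nt 240, top TTP site: acagugugccuuuuuaacccuuccu
Itgb2 nt 288, top TTP-AA site: uggccccaacuuAUUUAuAUUUAaa
Itgb2 nt 336, top TTP site: uuauauuguuaacaucccaucuguu
Nucleotides are counted from the first base after the stop codon. In GRCm38, the windows of Icam1 span chr9:21028394-21028418 and chr9:21028313-21028337 on the plus strand. Those of Sdc4 span chr2:164425103-164425127, chr2:164425194-164425218 and chr2:164424288-164424312 and those of Cd44 chr2:102811452-102811476 and chr2:102811509-102811533, all on the minus strand. The window of Itga4 spans chr2:79328128-79328152 on the plus strand and that of Itga5 chr15:103344328-103344352 on the minus strand. The windows of Itgb1 span chr8:128733153-128733177 and chr8:128732316-128732340 and those of Itgb2 chr10:77565516-77565540 and chr10:77565564-77565588, on the plus strand. All 13 windows lie in the last exon of their gene, in the 3′UTR. The top TTP-AA site shown for Itga4, Itga5, Itgb1 and Itgb2 lay on the first base of an AUUUA. That of Itga4 was tied with nt 2084 and 2085, 5 and 4 nt from an AUUUA, and with nt 2440, with none within 20 nt. That of Itgb2 was tied with nt 327, 29 nt from an AUUUA. The TTP site shown for Itgb1, nt 240, held 1 cDNA. It was tied with nt 1065, 1077 and 1079, all within 12 nt of an AUUUA. The TTP site shown for Cd44 held 2 cDNAs and was tied with nt 2671, 16 nt from an AUUUA. The TTP site shown for Itgb2 held 1 cDNA and was tied with nt 339, 41 nt from one. The top TTP-AA windows of Icam1, Sdc4 and Cd44 held no AUUUA, although the top site of Cd44 was 14 nt from one. The window at Sdc4 nt 1786 ended in an unbroken run of uridines.

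The lists held 8052 to 86497 sites with 19167 to 174397 cDNAs, of which 906 to 93510 lay in 3′UTRs. The value of a site is its number of unique cDNAs. Listed 3′UTR cDNAs of TTP numbered 4369 in resting cells, 9558 after 1 h LPS and 906 after 4 h. Those of TTP-AA numbered 6008, 93510 and 1000. Sites above a false-discovery rate of 0.05 had been removed, so a value of 0 means that no site was listed, which sets no upper limit. The tests below enter it as a count of 0, so their p-values do not cover cDNAs at sites that were removed. Sense cDNAs at the transgene's own gene, Zfp36, were listed in 3 groups: its 3′UTR held 4 in TTP at 0 h, 21 in TTP at 1 h and 131 in TTP-AA at 1 h. All 8 macrophage markers had mRNA sites in the TTP-AA list at 1 h, from 3 cDNAs for Cd68 to 177 for Lyz2. Cd68, Itgam and Cd14 had none in the other lists. In sum the 8 had 6 to 536 cDNAs per list, at 4 h only 7 of Lyz2 in TTP and 6 of Ctsb in TTP-AA. The 4 defining markers each of T cells, B cells, neutrophils and fibroblasts had none. Of 4 endothelial markers, 1 had 3 cDNAs, in TTP-AA at 1 h.

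TTP-AA had 3′UTR sites in all 7 adhesion mRNAs at 1 h LPS, and TTP had them in 6, with Itga4 as the exception. Of the 2065 genes with at least 10 cDNAs over both lists, 55.2% had no listed TTP cDNA. The 7 genes together held 1320 of the 93510 3′UTR cDNAs of TTP-AA (1.41%) and 107 of the 9558 of TTP (1.12%). At 0 h they held 37 and 25 cDNAs, at 4 h 27 and 7. Their sites were nearly all in 3′UTRs: at 1 h this applied to 1320 of 1333 sense cDNAs of TTP-AA (99.0%, Wilson 95% interval 98.3 to 99.4) and to 107 of 121 of TTP (88.4%, 81.5 to 93.0). Over all protein-coding genes the shares were 85.6% and 37.4%. Intervals here and below cover counting error only, and those on shares of sites treat neighbouring sites as independent.

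The few cDNAs outside the 3′UTRs belonged to 4 genes. Introns of Cd44 held 9 cDNAs of TTP and 5 of TTP-AA at 1 h, most of them at the same 13 nucleotides of chromosome 2 (102829367 to 102829379). Itgb2 had 2 cDNAs in the coding sequence and 3 in introns in TTP at 1 h, and 2 in introns in TTP at 0 h. TTP-AA at 1 h had 6 cDNAs in the coding sequence of Itga5 and 2 in that of Itga4. No 5′UTR site was listed for any of the 7 genes, none of their sites was shared with a second gene, and none lay in the 1000 nt after their 3′UTRs.

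**Figure D1:**
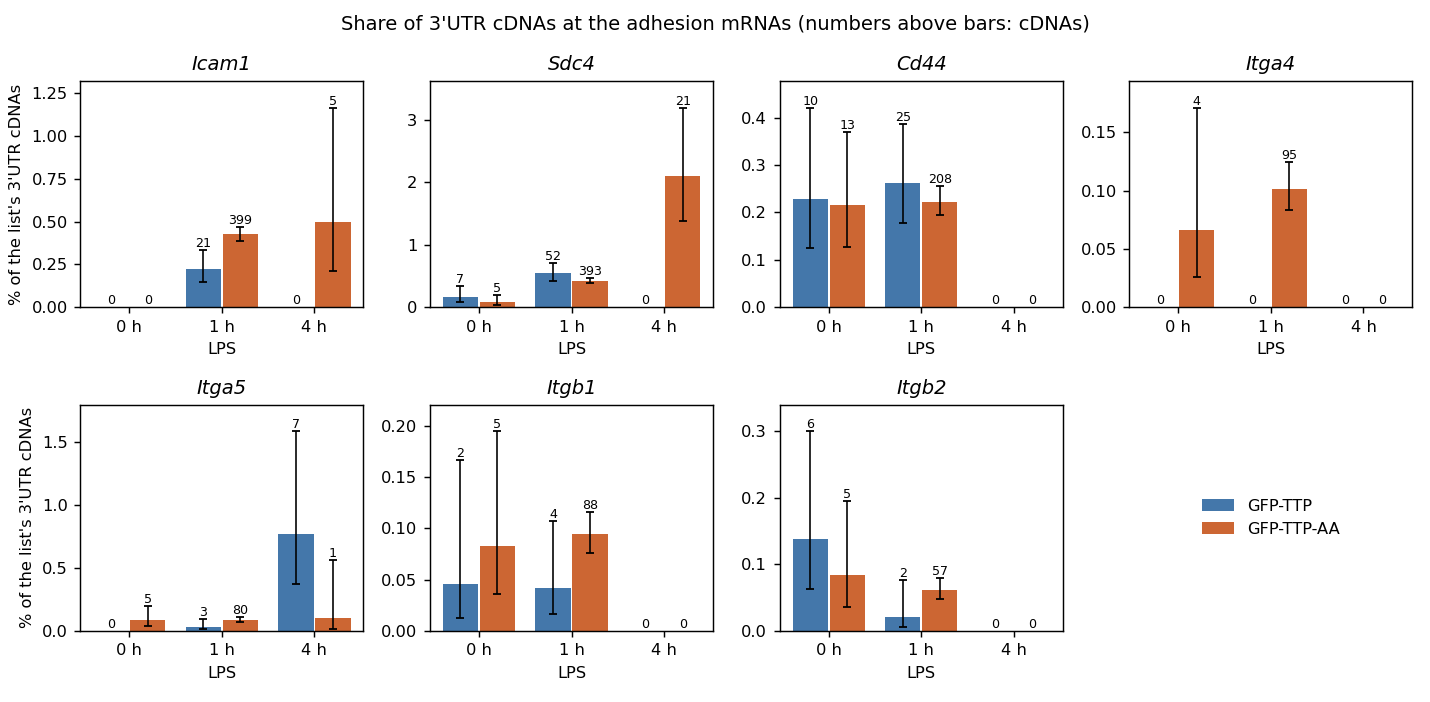
Share of each list's 3′UTR cDNAs that fell in each adhesion mRNA (y axis, percent) by LPS time (x axis), for GFP-TTP (blue) and GFP-TTP-AA (orange), 1 pooled list per bar; lines are Wilson 95% intervals and the numbers are cDNAs. Icam1 had no listed site at 0 h and 399 TTP-AA cDNAs at 1 h, and Sdc4 reached 2.1% of the TTP-AA list at 4 h on 21 cDNAs.

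The 3′UTRs of these mRNAs differ in length and in their number of AUUUA. That of Itga4 is 6508 nt long and has 16, Cd44 has 6 in 2992 nt, Icam1 4 in 871 nt, and Itga5, Itgb1 and Itgb2 have 2 each in 983, 1112 and 446 nt. Sdc4 has 1 in 1839 nt, whereas the study's own target table lists a shorter 3′UTR for Sdc4, without an AUUUA cluster. Of all 21028 3′UTRs, whose median length is 960.5 nt, 65.2% hold at least 1 AUUUA on the transcript strand. The longer nonamer UUAUUUAUU, which contains the pentamer, is in 7.66% of all 3′UTRs and among the 7 only in Itgb1.

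Icam1, the ligand through which leukocytes with beta-2 integrins adhere, had no listed site at 0 h in either list. At 1 h it had 21 cDNAs at 12 sites in TTP and 399 cDNAs at 123 sites in TTP-AA. At 4 h it had 0 in TTP and 5 in TTP-AA. Its level of TTP-AA cDNAs per kb of 3′UTR at 1 h, 458, was the highest of the 7 and rank 31 of the 4468 genes with 3′UTR sites in that list, whose median was 5.68. In TTP at 1 h it was 24.1 per kb, rank 66 of 1295.

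All TTP sites and 99.0% of the TTP-AA cDNAs of Icam1 at 1 h lay in a stretch of 242 nt, from nt 324 to 565 of the 3′UTR (chr9:21028270-21028511). Within it, the crosslinks formed a peak on the AUUUA cluster near nt 379 and another near nt 460. The window at nt 460, which has no AUUUA, held 16 of 21 TTP cDNAs (76.2%), 124 of 399 TTP-AA cDNAs (31.1%) and all 5 TTP-AA cDNAs at 4 h. The window at nt 379 held 4 TTP cDNAs (19.0%) and 113 TTP-AA cDNAs (28.3%). The distance from the top TTP-AA site, nt 460 with 20 cDNAs, to the nearest AUUUA was 49 nt. No site was listed at the AUUUA at nt 79, which lies apart from the other 3 (nt 380, 388 and 407).

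Sdc4, a heparan sulfate proteoglycan of focal adhesions that binds fibronectin, had sites in 5 of 6 lists, as did Itga5. It had 7 cDNAs in TTP and 5 in TTP-AA without LPS, 52 and 393 after 1 h and 0 and 21 after 4 h. Per kb of 3′UTR this was 28.3 in TTP at 1 h (rank 54 of 1295 genes) and 214 in TTP-AA (rank 58 of 4468). Its 186 TTP-AA sites at 1 h lay in 10 clusters, where a cluster is a run of sites at most 15 nt apart. The largest spanned nt 933 to 1016 and held 130 TTP-AA and 24 TTP cDNAs, with no AUUUA in it. The next, nt 789 to 895, contains the only AUUUA of the 3′UTR and held 109 and 23.

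The cluster of Sdc4 near the end of the 3′UTR, nt 1747 to 1813, held 58 TTP-AA cDNAs and no TTP cDNA at 1 h. All 5 TTP-AA cDNAs at 0 h lay there as well, and 5 of the 21 at 4 h. The 7 TTP cDNAs at 0 h were in the 2 largest clusters, 4 and 3, so no TTP site at 0 h was within 15 nt of a TTP-AA site at 0 h. Over all genes 41.5% of the TTP sites at 0 h lay that close to one, and over the 7 genes 10 of 23. The uridine run shown above is in this terminal cluster.

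Cd44, the hyaluronan receptor, was the member with most cDNAs at 0 h. It had 10 cDNAs in TTP and 13 in TTP-AA without LPS, 25 and 208 after 1 h and none after 4 h. All cDNAs at 0 h, 17 of 25 in TTP at 1 h and 95 of 208 in TTP-AA at 1 h fell between nt 2578 and 2728, a stretch with 1 AUUUA (nt 2651). The rest of the TTP-AA cDNAs at 1 h were spread along the 3′UTR, in a total of 19 clusters. In TTP, 3 cDNAs at nt 2519 to 2534 and 1 at nt 1560 had no TTP-AA site within 15 nt, and these were the only 4 such TTP sites among the 7 genes at 1 h.

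Itga4, the alpha-4 subunit that pairs with beta-1 to bind Vcam1 and fibronectin, was listed in TTP-AA only. It had 4 cDNAs at 0 h, 95 at 1 h and none at 4 h, and 0 in all 3 TTP lists. The absence from TTP at 1 h was common, as 55.2% of the 2065 genes tested had no listed TTP cDNA. Per kb of its 3′UTR, the longest of the 7, this was 14.6 at 1 h, rank 1202 of 4468. The sites of both times formed 14 clusters that covered 4.16% of the 3′UTR, and no site held more than 3 cDNAs. The largest, nt 2072 to 2139, held 26 cDNAs, and 5 of the clusters contained an AUUUA. The 4 cDNAs at 0 h lay at nt 4580 to 4592, where no site was listed at 1 h.

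Itga5, the alpha-5 subunit of the fibronectin receptor, was the only member with a TTP site at 4 h. It had 0 cDNAs in TTP and 5 in TTP-AA without LPS, 3 and 80 after 1 h and 7 and 1 after 4 h. All TTP cDNAs at both times, the 5 TTP-AA cDNAs at 0 h, the 1 at 4 h and 63 of 80 at 1 h lay at nt 905 to 959, around the AUUUA at nt 929. The remaining 17 TTP-AA cDNAs were at 2 places, 14 of them around the other AUUUA (nt 714). The site at nt 929 held 15 TTP-AA cDNAs, the most at any nucleotide of the integrin genes.

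Itgb1, the beta-1 subunit that pairs with both alpha subunits above, had 2 cDNAs in TTP and 5 in TTP-AA without LPS, 4 and 88 after 1 h and none after 4 h. Its sites concentrated near the 3′ end, with 66 of 88 TTP-AA cDNAs and 3 of 4 TTP cDNAs at nt 1026 to 1084, 28 nt or more before the annotated end. All cDNAs at 0 h lay there. This stretch holds the nonamer UUAUUUAUU, to which the AUUUA at nt 1077 belongs.

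Itgb2, the beta-2 subunit of the leukocyte integrins that bind Icam1, had 6 cDNAs in TTP and 5 in TTP-AA without LPS, 2 and 57 after 1 h and none after 4 h. All lay in a stretch of 105 nt, nt 286 to 390 of the short 3′UTR. The window with the pair of AUUUA at its start held 4 of the 5 TTP-AA cDNAs at 0 h, 16 of 57 at 1 h and no TTP cDNA at either time. Both TTP cDNAs at 1 h and 2 of 6 at 0 h were in the window around nt 336, which held 19 TTP-AA cDNAs at 1 h. The level per kb in TTP-AA at 1 h, 128 (rank 100 of 4468), came after those of Icam1 and Sdc4 among the 7.

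**Figure D2:**
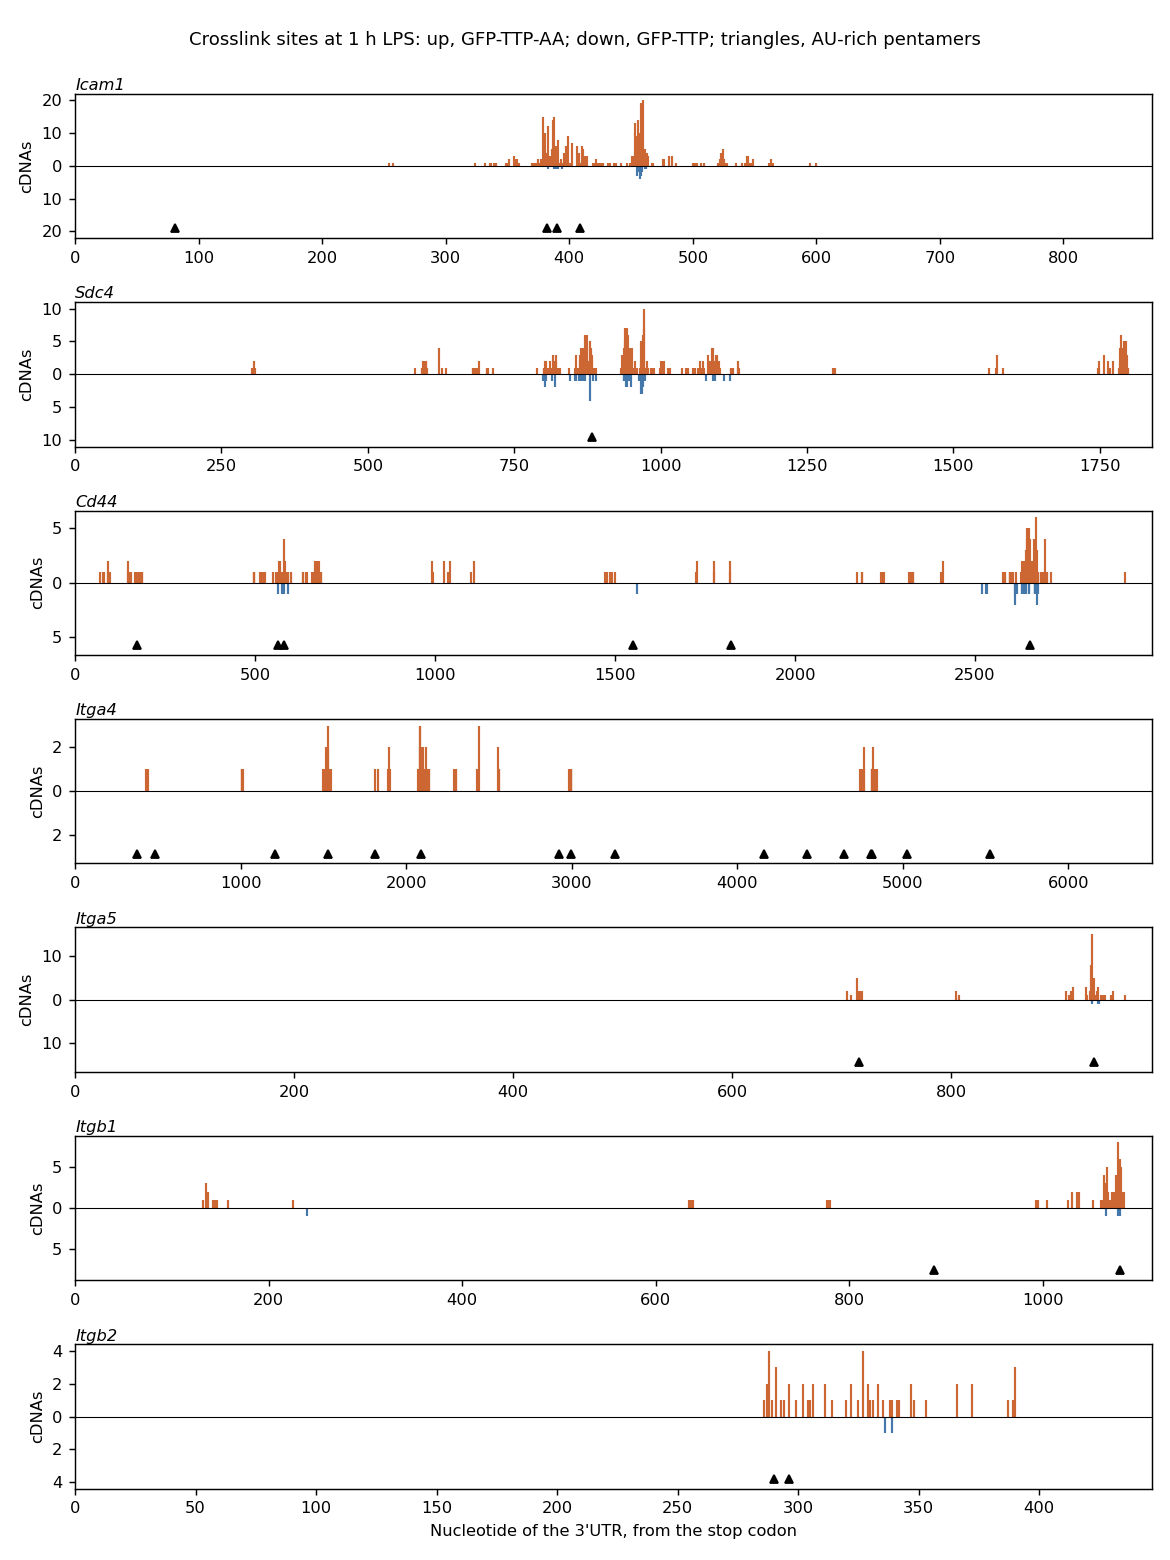
Crosslink sites along the 3′UTRs of the 7 mRNAs at 1 h LPS. The x axis is the nucleotide from the stop codon, bars are cDNAs per site (up, GFP-TTP-AA, down, GFP-TTP) and triangles mark the AU-rich pentamers. Icam1 shows peaks at nt 379 and nt 460, Sdc4 has a terminal peak in TTP-AA alone, and Itga5 and Itgb1 peak at their last pentamer.

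A larger share of the sites of both proteins than of the 3′UTR positions lay near the pentamer. Of the members' TTP-AA sites at 1 h, 226 of 644 lay within 20 nt of an AUUUA (35.1%, Wilson 95% interval 31.5 to 38.9), and of the TTP sites 31 of 83 (37.3%, 27.7 to 48.1). Of all positions of these 3′UTRs, 7.40% lie that close. Over all genes the shares of sites were 34.7% for TTP-AA and 37.9% for TTP. The intervals of both proteins overlapped, and both contained the value over all genes. With sites of at least 2 cDNAs the order of the proteins turned, to 12.5% for TTP (2 of 16) and 44.0% for TTP-AA.

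The members differed among themselves in this respect. Of the TTP-AA sites at 1 h, the share near AUUUA was 74.2% in Itga5, 55.8% in Itga4, 44.4% in Itgb1, 41.7% in Itgb2, 40.7% in Icam1, 35.6% in Cd44 and 12.4% in Sdc4. Neighbours in this order had overlapping intervals down to Cd44, while that of Sdc4 (8.38 to 17.9) lay below that of Cd44 (28.3 to 43.7). The single AUUUA of Sdc4 leaves 2.01% of its 3′UTR positions within 20 nt. At 0 h, 18 of 31 TTP-AA sites (58.1%) and 12 of 23 TTP sites (52.2%) of the 7 genes lay near AUUUA, where the shares over all genes were 33.5% and 45.4%. The Wilson 95% interval of the members' TTP sites, 33.0 to 70.8, contained the value over all genes, and that of their TTP-AA sites, 40.8 to 73.6, lay above it. These TTP-AA sites fell in groups of neighbours, which the interval treats as independent. Near AUUUA were all sites of Itga5 (3), Itgb1 (3) and Itgb2 (5), 7 of 12 of Cd44 and none of Sdc4 (5) or Itga4 (3). The interval is therefore too narrow to set the members apart from all genes. Sites were mostly at uridines: 62.4% of the members' TTP-AA sites and 68.7% of the TTP sites at 1 h, against 30.8% of their 3′UTR positions. Over all genes the shares of sites at uridines were close to these, 61.6% and 63.8%. UV-C crosslinks uridine most readily, and its part in this was not tested.

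**Figure D3:**
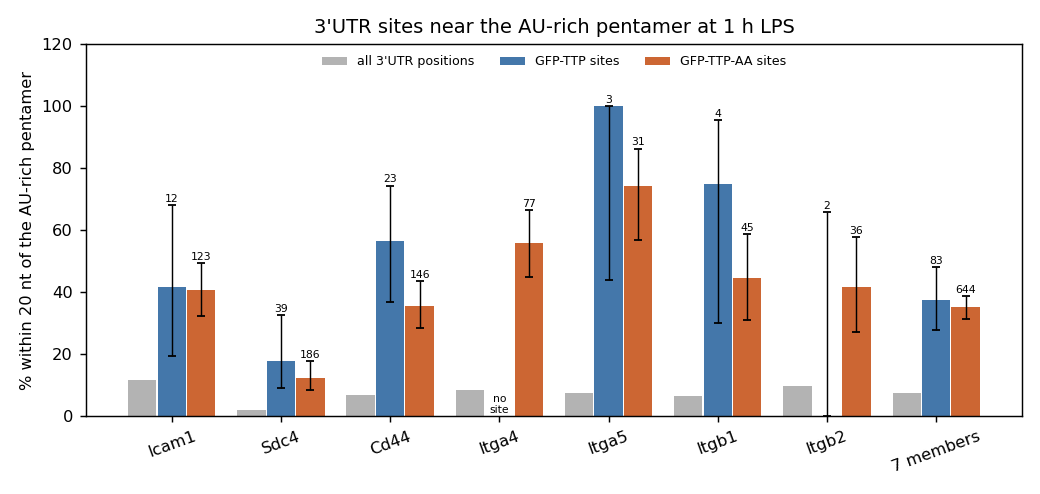
Percent of 3′UTR positions (grey), GFP-TTP sites (blue) and GFP-TTP-AA sites (orange) within 20 nt of the AU-rich pentamer at 1 h LPS (y axis), for each gene and for all 7 (x axis), with Wilson 95% intervals and the number of sites. Sdc4 has the lowest TTP-AA share, 12.4%, and Itga5 the highest, 74.2%.

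Most TTP sites of these mRNAs at 1 h lay close to a TTP-AA site. Of the 83 TTP sites, 79 had a TTP-AA site within 15 nt (95.2%, 88.3 to 98.1), and 289 of the 644 TTP-AA sites had a TTP site that close (44.9%, 41.1 to 48.7). Over all genes these shares were 76.6% and 21.5%. For Icam1, Sdc4, Itga5, Itgb1 and Itgb2 all TTP sites had a TTP-AA site nearby. All 23 TTP sites at 0 h, 26 of 31 TTP-AA sites at 0 h, all 6 TTP sites at 4 h and all 22 TTP-AA sites at 4 h also lay within 15 nt of a TTP-AA site at 1 h. In the same order the shares over all genes were 83.5%, 81.4%, 80.8% and 70.5%, so that of the TTP-AA sites at 0 h (83.9%) was near the general one. These overlaps share the TTP-AA list at 1 h, which is the largest. The members were also densely covered in it, with 14.6 (Itga4) to 458 (Icam1) cDNAs per kb beside a median of 5.68. The part of this density in the overlap was not tested.

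The comparison of TTP-AA with TTP at 1 h asks where the loss of the MK2 serines changes binding. More cDNAs were listed in TTP-AA than in TTP for all 7 genes, as for 99.2% of the 2065 genes with at least 10 cDNAs over both lists, and the lists as a whole differed 9.78-fold in 3′UTR cDNAs. Icam1 and Itga4 had a larger share of the TTP-AA list than of the TTP list, and the other 5 did not pass the test (two-sided Fisher exact test of a gene's 3′UTR cDNAs against all others, Benjamini-Hochberg over the 2065 genes, threshold 0.05). So 2 of 7 were called, both higher, where 6.39% of all genes tested were called, and 1.99% called higher and 4.41% lower. Called or not, 68.8% of the genes tested had a larger share of the TTP-AA list than of the TTP list. A list of cDNAs reflects both how much of an mRNA is present and how much of it is bound, and these cannot be told apart here. Icam1 and Sdc4 are also in the study's own target tables, which were drawn up from these samples, so their counts are not independent evidence.

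For Icam1 the ratio of TTP-AA to TTP cDNAs was 19 (399 against 21, exact 95% interval 12.3 to 31.0), and its share was 0.427% against 0.220% (Fisher exact test, adjusted p = 0.0318). For Itga4 the counts were 95 and 0 (Fisher exact test, adjusted p = 0.00695), which gives no ratio. The test took this 0 as a count, although it means only that no TTP site was listed. For Sdc4 and Cd44 the ratios were 7.56 (5.65 to 10.3) and 8.32 (5.48 to 13.2), below the ratio of the lists but with intervals that contained it (adjusted p = 0.358 and 0.699, Fisher exact test). The ratios of Itga5, Itgb1 and Itgb2 were 26.7 (8.80 to 132), 22 (8.29 to 82.5) and 28.5 (7.54 to 241), on 3, 4 and 2 TTP cDNAs (adjusted p = 0.362, 0.479 and 0.494, Fisher exact test). The median log2 ratio, with 0.5 added to each count, was 4.30 over the 7 genes and 4.52 over all genes tested. That of Icam1, 4.22, was higher than in only 41.8% of the genes tested, so its ratio was not unusual among them.

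The calls at 1 h depended on what a gene's cDNAs were set against. Set against all cDNAs of each list instead of the 3′UTR cDNAs, all 7 members were called higher in TTP-AA, but so were 1754 of 2065 genes, and the share of calls that were higher went from 31.1% to 99.5%. With each site counted once, Icam1 was no longer called (123 against 12 sites, adjusted p = 0.843, Fisher exact test), and Sdc4 had a lower share of the TTP-AA sites than of the TTP sites (186 against 39, adjusted p = 0.0182). With sites of at least 2 cDNAs, Itga4 was no longer called (32 against 0, adjusted p = 0.598, Fisher exact test).

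**Figure D4:**
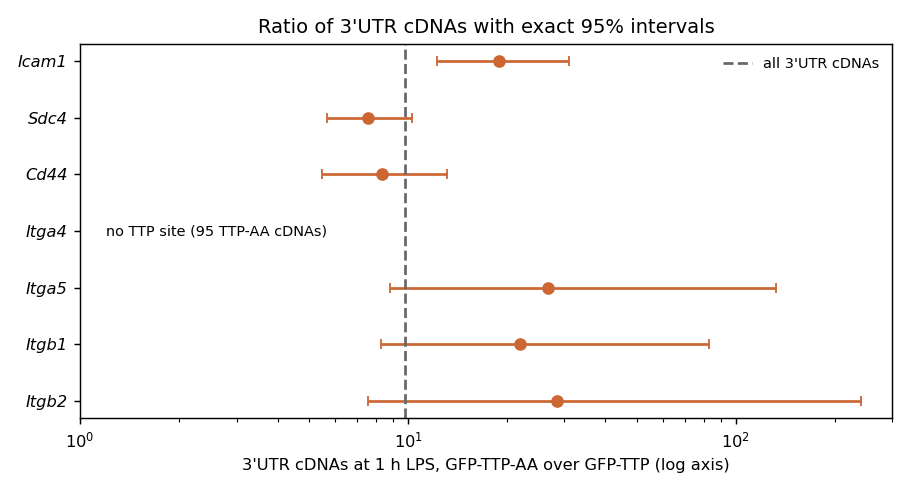
Ratio of GFP-TTP-AA to GFP-TTP 3′UTR cDNAs at 1 h LPS (x axis, log scale) for each gene (y axis), with exact 95% intervals; the dashed line is the ratio over all 3′UTR cDNAs, 9.78. The interval of Icam1 lies above the line, the others cross it, and Itga4 has no ratio because no TTP site was listed.

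From 0 h to 1 h LPS, the shares of Icam1 and Sdc4 rose in both TTP and TTP-AA. These comparisons ask which mRNAs are bound after LPS. In TTP, Icam1 went from 0 to 21 cDNAs (adjusted p = 0.00264) and Sdc4 from 7 to 52, or from 0.160% to 0.544% of the 3′UTR cDNAs (adjusted p = 0.00305), by the two-sided Fisher exact test with Benjamini-Hochberg over 276 genes. Cd44 had 10 and 25 cDNAs, 0.229% and 0.262% (adjusted p = 0.930, Fisher exact test), and the other 4 genes had too few to be tested. Thus 2 of 3 members tested were called, beside 47.5% of all genes tested (23.9% called higher). The 0 of Icam1 was entered as a count, although it means only that no site was listed. Set against all cDNAs of the lists, both remained called higher, while the calls over all genes went from 66 higher of 131 to 32 higher of 125.

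In TTP-AA, Icam1 went from 0 to 399 cDNAs (adjusted p = 1.757e-09) and Sdc4 from 5 to 393, or from 0.0832% to 0.420% (adjusted p = 1.168e-04, two-sided Fisher exact test with Benjamini-Hochberg over 2052 genes). The other 5 members did not pass the test, with adjusted p from 0.808 to 1 by the Fisher exact test. Their cDNAs at 1 h were 11.4 times (Itgb2, 4.61 to 36.4) to 23.8 times (Itga4, 8.98 to 89.0) those at 0 h, where the list as a whole had 15.6 times as many. So 2 of 7 were called, both higher, beside 12.4% of all genes tested (2.73% called higher and 9.7% lower). As in TTP, the 0 of Icam1 stands for no listed site. With all cDNAs of the lists as the reference, 6 of 7 members were called higher, and calls over all genes went from 56 higher of 255 to 466 higher of 503. With each site counted once, Sdc4 was no longer called (adjusted p = 0.137, Fisher exact test). The headers of the 1 h lists carry a mark on how regions were treated in peak calling that the 0 h and 4 h lists lack, so LPS time and this setting cannot be told apart. The comparison shares the TTP-AA list at 1 h with the one between the proteins.

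Without LPS, no difference between TTP and TTP-AA was detected at the 3 of these mRNAs with enough cDNAs to be tested. Sdc4 had 7 and 5 cDNAs, Cd44 10 and 13, and Itgb2 6 and 5 (adjusted p = 0.574, 1 and 0.724, two-sided Fisher exact test with Benjamini-Hochberg over 241 genes). The exact 95% intervals of the TTP-AA to TTP ratio were wide, 0.179 to 2.61, 0.527 to 3.31 and 0.201 to 3.28. None of 3 members tested was called, beside 30.7% of all genes tested, and this held in each other setting that tested any of them. Itga4, Itga5 and Itgb1 were below the minimum of 10, with 0, 0 and 2 TTP and 4, 5 and 5 TTP-AA cDNAs. Icam1 had no site. The test leaves positions aside: none of the TTP sites of Sdc4 (7) and Itgb2 (6) lay within 15 nt of a TTP-AA site. All of Cd44 (8) and Itgb1 (2) did, beside 41.5% over all genes. The calls over all genes went from 42 higher of 74 to 59 higher of 78 when set against all cDNAs of the lists.

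At 4 h few 3′UTR cDNAs were listed, and 3 of the 7 genes had any. Sdc4 had 21 TTP-AA cDNAs at 17 sites and none in TTP, and Icam1 had 5 and 0. Itga5 had 1 and 7. Only Sdc4 reached the 10 cDNAs needed for the test and was called higher in TTP-AA (adjusted p = 8.316e-06, two-sided Fisher exact test with Benjamini-Hochberg over 25 genes), where 68% of the 25 genes tested were called (36% called higher). Its TTP count of 0 in that test means only that no site was listed. With a minimum of 5 cDNAs, Icam1 was not called and Itga5 was called lower in TTP-AA, among 51 of 78 genes called. The calls over all genes went from 9 higher of 17 to 10 higher of 14 against all cDNAs of the lists. The sites of Sdc4 at 4 h were in its largest clusters (7 cDNAs at nt 933 to 1016 and 9 at nt 789 to 895) and in the terminal cluster (5). Sdc4 ranked 5 of 198 genes by TTP-AA cDNAs at 4 h, and 21 of 4468 at 1 h.

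Further genes of cell adhesion also had sites, and Msn had more TTP-AA cDNAs at 1 h than 5 of the 7. Of 63 further integrin, immunoglobulin superfamily, selectin, syndecan and linker genes, 20 had a 3′UTR site in any list, and their 3′UTRs held 804 TTP-AA and 46 TTP cDNAs at 1 h. TTP-AA at 1 h had 3′UTR sites in 18 of these 63 genes, and in 4468 of all 21028. Of all 2065 genes tested at 1 h, 1.99% were called higher in TTP-AA and 4.41% lower. Among the 63, 8 had enough cDNAs for this test, and of these 2 were called higher and 1 lower. Whether the 63 differ from all genes was not tested. The 2 were alpha subunits: Itgam, which pairs with Itgb2 in the macrophage integrin Mac-1, had 85 TTP-AA cDNAs and none in TTP (adjusted p = 0.0118), and Itgav, the alpha-v subunit of vitronectin receptors, had 91 and none (adjusted p = 0.00641, Fisher exact test over 2065 genes). Of all genes tested at 1 h, 55.2% had no listed TTP cDNA. For Itgam and Itgav the test took the lack of a listed TTP site as a count. At 4 h Itgav had 2 cDNAs in TTP. The gene called lower was Ptk2b, the focal adhesion kinase Pyk2, with 50 TTP-AA and 14 TTP cDNAs (ratio 3.57, 1.94 to 7.00, adjusted p = 0.0340, Fisher exact test). The third alpha subunit, Itga6, had 10 and 2.

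None of the 6 other beta subunits and none of 4 genes of the selectins and their ligand had a 3′UTR site in any list. Of the 11 genes of the immunoglobulin superfamily group, Cd47, which restrains phagocytosis, had 3 TTP-AA cDNAs at 1 h. The other 10 had none, among them Vcam1, the counter-receptor of the alpha-4 integrin, which is named here after its values were seen. Msn, the moesin that links Cd44 to actin, had the most cDNAs of the 63 genes, 220 in TTP-AA and 16 in TTP at 1 h and none at 0 h, and passed the test for a higher share at 1 h than 0 h in both proteins. Sdcbp (syntenin, which binds the syndecan tail) had 88 and 6 at 1 h. Rap1b, a small GTPase that activates integrins, had 155 and 6 and was called higher at 1 h than 0 h in TTP-AA. Parvb had 58 and 0 at 1 h. Ezr, the related ezrin, had 7 TTP-AA cDNAs. The median log2 ratio at 1 h over the 8 tested was 4.17, beside 4.52 over all genes tested.

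The genes whose cDNAs were spread most alike over the 6 lists were found among 458 genes with at least 50 3′UTR cDNAs, by summing the absolute differences of the list shares and dividing by 2 (0 is identical, 1 has nothing in common). For Cd44 they were Atp1b3 (0.00773) and Pcbp2, for Sdc4 Ppp1cb (0.0257) and Tpm3, and for Itga4 Srsf6 (0.0114) and Cadm1. For Itga5 they were Agpat1 (0.0625) and Tmem30a, for Itgb1 Rgs1 (0.0233) and Abr, and for Itgb2 Rad21 (0.0167) and Srsf2. For Icam1, 12 genes tied at 0.0118, of which Dip2b and Dync1i2 come first by name. The list sizes set much of this profile, since most cDNAs of any gene are in the TTP-AA list at 1 h.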

How the data were processed

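The deposited values were scores: per the file headers and the methods of the study, whole numbers of unique cDNAs per crosslinked nucleotide, with the sign as strand. The authors demultiplexed the reads, collapsed PCR duplicates by the random barcode bases, mapped unique reads to GRCm38 (mm10, Ensembl 75) with Bowtie, took the nucleotide before the read, added up a group's libraries and retained sites with a false-discovery rate under 0.05 in iCount (100 permutations, 15 nt neighbourhood). The Bowtie version is not given in the sources used here. The depth of single libraries is unknown.

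Sites were placed on GENCODE M21 genes of the same strand in Python 3.11.15, with 3′UTR before coding sequence, 5′UTR and intron. Positions, motifs and sequences used the transcript with the longest 3′UTR. Genes with at least 10 3′UTR cDNAs over 2 lists were tested with the two-sided Fisher exact test (scipy 1.17.1), Benjamini-Hochberg over all of them. In a simulation from the 1 h lists, 1882 genes reached the minimum of 10 cDNAs and were tested. Of 100 genes made 4-fold higher in TTP-AA, all were tested and 33 were called. Of 100 made 4-fold lower, only 40 reached the minimum, and 17 were called. Of 1742 unchanged genes tested, 2 were called. Ratios have exact 95% intervals from the binomial distribution, and shares have Wilson intervals.

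The 7 genes, the list of 63 further adhesion genes and the tests were chosen with earlier results of these data known. Named were the 7 genes, the further adhesion genes past the threshold or among the 3 with most cDNAs of their group, the 2 genes most like each member, the cell type markers and Zfp36. Other settings changed the minimum of cDNAs, the reference total, the weight of sites and the motif. Limits for counts of 0 had been planned at 4 h and were left out, since sites under the threshold are not in the lists.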

Additional observations from a re-analysis of the deposited data

Results flagged for a closer look

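For 3 genes the TTP-AA to TTP ratio of 3′UTR cDNAs was under 1 at a time other than 1 h. It was 0.714 for Sdc4 at 0 h (5 against 7 cDNAs) and 7.56 at 1 h. It was 0.833 for Itgb2 at 0 h (5 against 6) and 28.5 at 1 h. It was 0.143 for Itga5 at 4 h (1 against 7, exact 95% interval 0.00317 to 1.11) and 26.7 at 1 h (80 against 3). Itgb2 also had fewer TTP cDNAs at 1 h than at 0 h (2 against 6, ratio 0.333) and more TTP-AA cDNAs (57 against 5, ratio 11.4). These differences between times or proteins were not tested, and the lists themselves differed 9.78-fold in 3′UTR cDNAs at 1 h.

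Outside the sense sites, Cd44 had antisense sites in every list, within the snRNA gene Gm23731 that lies in its intron on the opposite strand. In TTP they held 33, 18 and 6 cDNAs at the 3 times in order, and in TTP-AA 6, 3 and 6, at chromosome 2 positions 102897997 to 102898014. TTP had more than TTP-AA at 0 h and 1 h, unlike the sense 3′UTR cDNAs of Cd44 (10 and 13, then 25 and 208). Small nuclear RNA genes have near-identical copies, so the origin of these reads is uncertain. The other 6 genes had no antisense site.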

How the results depend on the processing

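No paired analysis was possible because each list pools the libraries of its group and no site is tied to a replicate, and for the same reason no replicate was left out.

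Counts of genes called by the Fisher exact test moved as follows. For TTP-AA against TTP at 0 h, 74 became 156 with a minimum of 5 cDNAs, 32 with a minimum of 20, 31 with sites counted once and 31 with sites of at least 2 cDNAs. At 1 h, 132 became 1763 against all cDNAs of the list and 64 with sites of at least 2 cDNAs. At 4 h, 17 became 51 with a minimum of 5, 10 with a minimum of 20, 7 with sites counted once and 10 with sites of at least 2 cDNAs. For TTP at 1 h against 0 h, 131 became 53 with a minimum of 20, 67 with sites counted once and 47 with sites of at least 2 cDNAs. For TTP-AA at 1 h against 0 h, 255 became 503 against all cDNAs of the list and 90 with sites of at least 2 cDNAs. With sites of at least 2 cDNAs no member could be tested at 0 h or 4 h, so Sdc4 has no call at 4 h in that setting, and with a minimum of 20 only Cd44 was tested at 0 h. Where members were tested, calls that changed are given with the comparisons.

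The members' median log2 ratio at 1 h, 4.30, became 4.18 with a pseudocount of 1 (all genes 3.70), 3.30 with sites counted once (4.39) and 6.02 with sites of at least 2 cDNAs (4.64), so its order relative to all genes changed with the setting. The share of sites near AUUUA became 21.7% (TTP) and 22.8% (TTP-AA) within 10 nt, 59.0% and 50.9% within 50 nt, and 12.5% (2 of 16) and 44.0% with sites of at least 2 cDNAs. For TTP-AA it became 42.3% weighted by cDNAs and 26.9% for UAUUUAU. The share of TTP sites with a TTP-AA site became 71.1% at the same nucleotide. The 3′UTR share of TTP-AA cDNAs became 99.5% with sites of at least 2 cDNAs.

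Of 119 single-gene alternatives, 92 kept direction and call, 3 lost the call, 8 gained it and 16 changed direction. Apart from Sdc4 and Cd44 at 1 h, no gene that changed direction was called in either setting of the Fisher exact test. Against all cDNAs of the list, the direction changed for Cd44 at 0 h (Fisher exact test, adjusted p = 0.727), for Sdc4 (8.470e-30) and Cd44 (3.154e-17) in TTP-AA against TTP at 1 h, for Cd44 in TTP over time (0.758) and for Itgb2 in TTP-AA over time (0.229). Against 3′UTR, coding and 5′UTR cDNAs it changed for Cd44 at 1 h (1) and in TTP over time (1). With sites counted once it changed for Cd44 at 0 h (0.971) and for Cd44 and Itga5 in TTP-AA over time (0.902 each). With sites of at least 2 cDNAs it changed for Sdc4 (0.829) and Cd44 (0.598) at 1 h, and for Itga4, Itga5 and Itgb1 (1 each) and Itgb2 (0.797) in TTP-AA over time. These are Fisher exact tests with Benjamini-Hochberg adjustment. The cause of these changes was not tested. The low counts at 0 h and 4 h limit what can be seen there.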
